A study of Oryza sativa with 20 samples.

Results

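The change of transcript levels between stages S4 and S5 was compared between the lamina joint (LJ) and the blade of young rice plants (Oryza sativa), both taken from the seedling's first complete leaf. The 8 libraries compared were the 2 of LJ at S4, the 2 of LJ at S5, the 2 of blade at S4 and the 2 of blade at S5, out of 20 libraries of 5 stages in the series. All seedlings were grown in water with 16 h of light and 8 h of dark, with no treatment named in the labels. The sources used here give no genotype or cultivar. LJ pieces were shorter than 1 mm and blade pieces shorter than 10 mm, so each library holds RNA of several cell types. Tissue was collected on 5 days after germination, without a label that says which day belongs to which stage. The measure of the comparison, called the interaction here, is the S5 minus S4 change in LJ minus the S5 minus S4 change in blade, on the log2(FPKM + 1) scale. FPKM is the deposited unit, a fragment count scaled for transcript length and library size. A positive interaction means that the gene rose more, or fell less, in LJ.

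The lamina joint is the hinge between the leaf blade and the leaf sheath, and the angle of the leaf is set by how the cells on its upper and lower sides divide, expand and thicken their walls. Brassinosteroid and auxin are known to act in opposite ways on this angle in rice, and the LIGULELESS1 gene LG1 is required to form the joint, the ligule and the auricles. The blade is the photosynthetic part of the leaf. The labels name only tissue and stage, and the markers of the tissues followed the names: LG1 stood at 8.21 to 24.4 FPKM in the 4 LJ libraries and at 1.35 to 1.77 FPKM in the 4 blade libraries. The summed level of 4 named photosynthesis markers, RBCS2, RCA, CAB1R and CAB2R, was higher in blade than in the LJ library of the same number in each of the 4 pairs. The meristem markers OSH1, OSH15 and OSH6 together stayed at 0.588 FPKM or less in all 8 libraries, with OSH1 listed at 0 in each. They are class I KNOX homeobox genes. Of others of that class, OSH43 stayed at 0.0857 FPKM or less, while OSH71 reached 5.23 and 3.21 FPKM in LJ at S5.

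The 2 S4 libraries of a tissue were less alike than those of S5. Replicate libraries correlated across genes at 0.928 in LJ and 0.914 in blade at S4, and at 0.978 and 0.975 at S5. The difference between replicates 2 and 1 was shared by the tissues, with a correlation across genes of 0.774 at S4 and 0.516 at S5. At S4 the LJ library numbered 1 correlated with the blade library numbered 1 at 0.953, above its 0.928 with the other LJ library. Blade S4 replicate 2 was the most uneven library, with 44.2% of its FPKM total in 50 genes, against 19.4% to 27.3% in the other 7. The labels do not state whether replicates are separate plants, so p-values measure only the spread between libraries, and that spread may be technical. The number of reads behind the FPKM is unknown.

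The tissues changed largely in parallel between S4 and S5, and few genes were called as changing differently. Of 26403 genes tested, 28.5% were called in LJ, 5145 as rising (19.5%) and 2380 as falling (9.01%), and 32.7% in blade, 6289 as rising (23.8%) and 2343 as falling (8.87%), in limma at a Benjamini-Hochberg adjusted p under 0.05. With upper quartile scaling these splits were 3200 and 3105 in LJ and 3520 and 3566 in blade, and with quantile normalization 3875 and 3027, and 4103 and 3264. Both tissues were called in the same direction in 5727 genes, which are 76.1% of the LJ calls and 66.3% of the blade calls, and in opposite directions in 8. Across genes the LJ change and the blade change correlated at 0.873 (Pearson r over 26403 genes, a description, since genes are not replicates and same-numbered libraries varied together).

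The interaction was called in 95 genes, 0.36% of those tested, 55 of them higher (0.208%) and 40 lower (0.151%). The calls rest on the spread over all 10 groups of the series: limma called 4 genes, 1 higher and 3 lower, when the 4 groups compared were fitted alone. The SD across genes of the replicate difference was 0.793 in LJ and 0.876 in blade at S4, and 0.397 to 0.664 at the other stages. In this fit without pairing, a spread shared by all groups can thus be too small for S4, and the adjusted p-values too low. Replicate shifts common to both tissues, which correlated at 0.774 at S4, cancel in LJ minus blade. For genes with such shifts the adjusted p-values of this fit can instead be too high. With library weights, 0.563 in LJ and 0.395 in blade at S4, 36 genes were called. With same-numbered LJ and blade libraries of a stage paired, 356 genes were called (1.35%), 182 higher and 174 lower, and they held all of the 95. Calls and SE given below are those of the main fit, without pairing, unless another fit is named. The count was 58 without LJ S5 replicate 2, 56 without blade S4 replicate 1 and 49 without blade S5 replicate 1. The median interaction over all tested genes was −0.08, and 0.01 with upper quartile scaling.

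**Figure D1:**
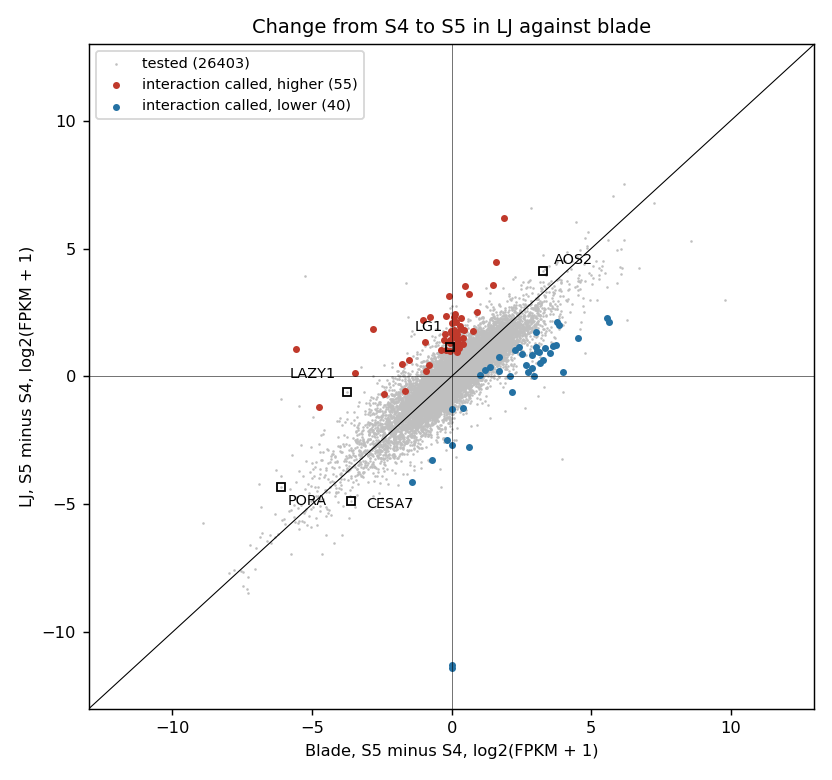
The S5 minus S4 difference in LJ (vertical axis) against that in blade (horizontal axis), on the log2(FPKM + 1) scale, for each of 26403 tested genes, with the 55 genes called higher in the interaction in red, the 40 called lower in blue and 5 named genes as open squares; the line marks equal change. Most genes lie near the line, 2 called genes lie alone below −11 in LJ at 0 in blade, and none of the 5 named genes was called in the interaction.

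Most of the 55 genes called higher were genes that came up in LJ. In LJ they rose without a called change in blade in 35 cases, and they rose in both tissues in 8. A further 7 fell in blade with no called change in LJ, 3 rose in LJ and fell in blade, and 2 fell in both. Among the 4 groups compared, the mean was highest at LJ S5 in 48 of 55. A rise in LJ to S5 is part of the interaction by which the 55 were chosen, so these patterns are no separate result. The 55 were mostly weak. The median of their group means was 0.543 FPKM at LJ S4 and 4.44 FPKM at LJ S5. In blade it was 0.151 FPKM at S4 and 0.304 FPKM at S5. In 41 no mean of these 4 groups reached 10 FPKM. In 35 of 55 both blade means were under 1 FPKM.

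The 40 genes called lower were mainly genes that came up in blade. Both tissues rose in 18 of them and blade alone in 13, while 7 fell in LJ alone and 2 fell in both. Among the 4 groups compared, blade S5 held the highest mean in 31 of 40, and a rise in blade to S5 is part of how the 40 were chosen. In 23 the means of both tissues at S4 were under 1 FPKM and that of blade at S5 was over 1 FPKM, with blade S5 means of up to 53.2 FPKM and LJ S5 means of up to 4.70 FPKM. At S4 LJ was called above blade in 12 of the 40 (6.7% of all tested genes), and at S5 LJ was called below blade in 29 (1.56% of all tested genes). Both differences are parts of the interaction by which the 40 were chosen. An excess over all tested genes is therefore built in and is no separate result. Among the 95, 18 had another called gene within 5 places in the order of IDs, and neighbouring or overlapping genes can share reads where strand was not counted. With a pseudocount of 0.1 in place of 1, 28 genes were called and 15 of them were among the 95. With a filter at 5 FPKM 21 were called, all among the 95.

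**Figure D2:**
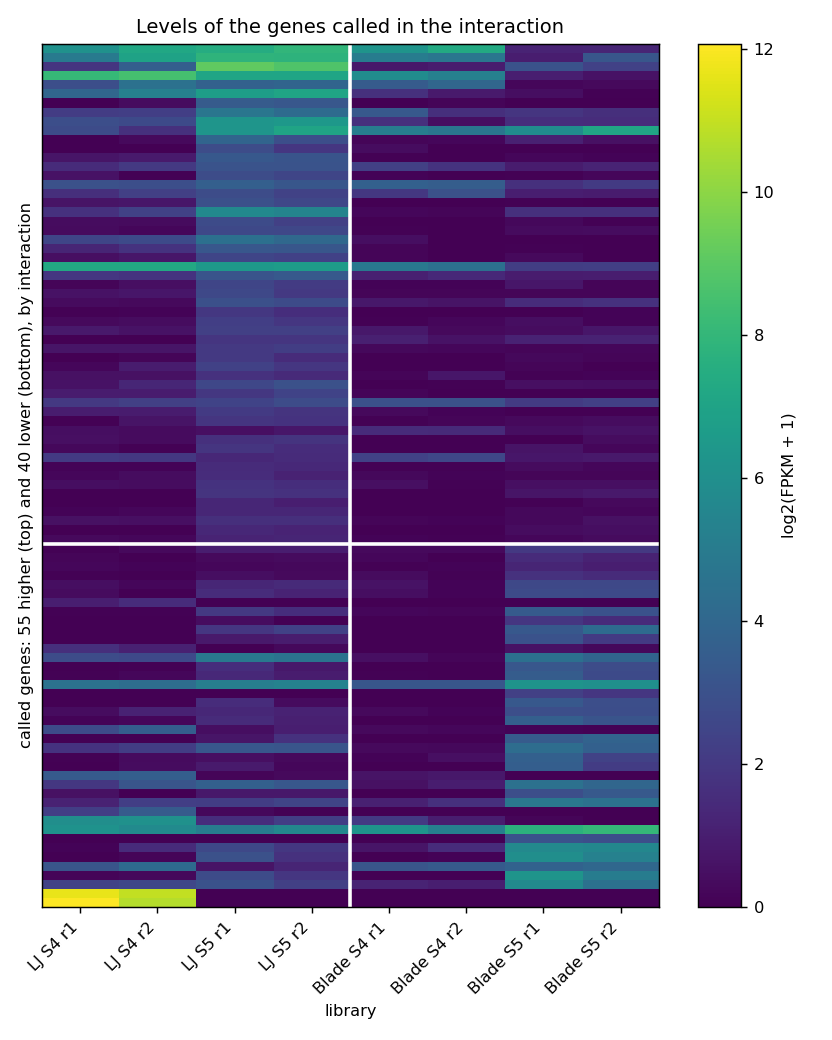
Level on the log2(FPKM + 1) scale (colour) of the 95 called genes (rows, ordered by interaction, the 55 higher above the white line and the 40 lower below it) in each of the 8 libraries (columns). The upper block is brightest in the LJ S5 libraries, most of the lower block in the blade S5 libraries, and the last 2 rows in the LJ S4 libraries only.

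None of the 95 is a gene of the lists described below, and the sources used here do not pair their IDs with names. OS05G0201700 had the highest interaction among the 95. It stood at 66.7 and 143 FPKM in the LJ libraries numbered 1 and 2 at S4, at 175 and 244 FPKM in LJ at S5, at 75.5 and 162 FPKM in blade at S4, and at 1.30 and 1.36 FPKM in blade at S5. The tissues were alike at S4, with the second library of each above the first, and separated at S5. Its interaction was 6.65 ± 0.87 (SE, 2 libraries per group; limma adjusted p = 0.0029), from a fall of blade (−5.58 ± 0.62) with no called change in LJ (1.07 ± 0.62). Over the 20 alternatives its value was 6.11 to 7.35, with adjusted p from 0.0027 to 0.15, and only the fit of the 4 groups alone lost the call.

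OS07G0568700 was at 30.5 and 121 FPKM in LJ at S4, 232 and 219 FPKM in LJ at S5, 32.2 and 25.9 FPKM in blade at S4 and 0.959 and 8.28 FPKM in blade at S5. LJ rose and blade fell, and the tissues overlapped at S4 only. Its interaction was 4.68 ± 0.88 (limma adjusted p = 0.035), and 11 of the 20 alternatives lost the call, including the fits without LJ S4 replicate 1, LJ S5 replicate 1, LJ S5 replicate 2, blade S4 replicate 1, blade S4 replicate 2 and blade S5 replicate 1. At S1 to S3 it stood between 213 and 356 FPKM in LJ, so the S5 level of LJ lay within its earlier range.

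The lowest interactions among the 95 belonged to a pair of IDs with signal in few libraries. OS03G0659266 was at 4290 and 1701 FPKM in LJ at S4, and OS03G0667201 at 3232 and 1961 FPKM. Both were listed at 0 in the other 6 of the 8 libraries, and in the other 12 libraries of the series only the second blade library at S1 held any, at 294 and 319 FPKM. Their interactions were −11.40 ± 2.23 (limma adjusted p = 0.045) and −11.30 ± 2.24 (adjusted p = 0.048) on a scale where 0 FPKM counts as 0, so these values depend on the pseudocount and are no fold changes. Each was called in at most 5 of the 20 alternatives, and each of the 8 fits with 1 library left out lost both calls, with adjusted p of 0.072 to 0.17.

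The named genes come from 25 lists of 253 pairs of ID and symbol, of which 180 passed the identity check against the RefSeq annotation and 168 passed the filter on low values; the other 12 were too low to test. Of the 168, 14 reached 1 FPKM in fewer than 2 of the 8 libraries and passed the filter through other stages. These were DL, BU1, OSH1, OSH15, GH3-1, GH3-8, CKX2, CYCB2-2 and the 6 MCM genes, and these low levels limit their values and those of their lists. Limma called 0 of the 168 in the interaction, against 0.36% of all tested genes, and 17 had an unadjusted p under 0.05 (11 higher, 6 lower), against 5.39% of all tested genes. With same-numbered libraries paired, 3 were called, the aquaporin gene PIP2-1, the magnesium chelatase gene CHLI and the abscisic acid 8'-hydroxylase gene ABA8OX3. The median interaction of the 168 was −0.06, close to the −0.08 of all genes. Of them, 17 rose and 38 fell in LJ, 20 rose and 43 fell in blade, and 13 rose and 23 fell in both, where 15.7% and 5.95% of all tested genes did.

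**Figure D3:**
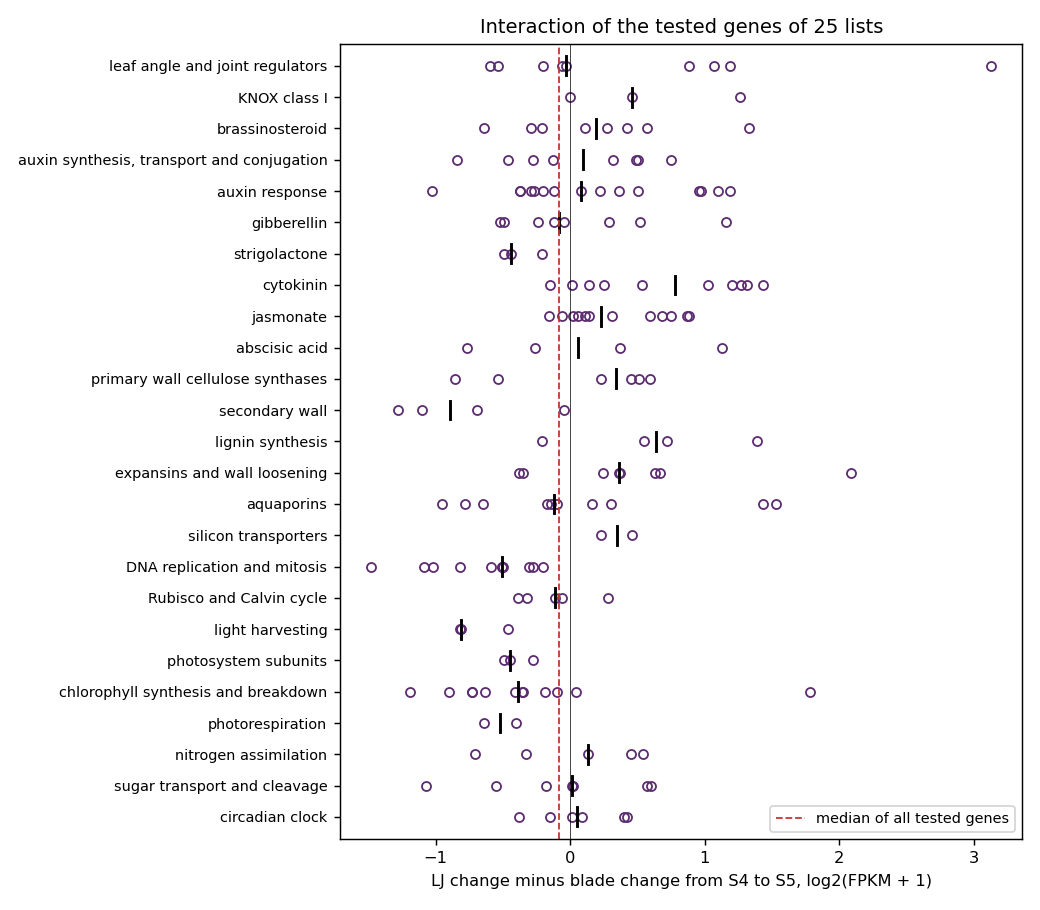
Interaction on the log2(FPKM + 1) scale (horizontal axis) of each tested named gene (circles) in the 25 lists (rows), with the median of each list as a black bar and the median of all tested genes, −0.08, as a dashed line. The points lie between −1.48 and 3.13, on both sides of the line in most lists, and none was called.

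Among regulators of the joint and of leaf angle, LAZY1 and LG1 had the highest interactions. LAZY1 (OS11G0490600) acts in shoot gravitropism and restrains polar auxin transport. It stood at 66.4 and 91.3 FPKM in LJ at S4 and 49.9 and 51.0 FPKM in LJ at S5, and in blade it went from 28.5 and 5.50 FPKM to 0 and 0.0599 FPKM. LJ lay above blade in each library, with differences of 1.19 and 3.83 between same-numbered libraries at S4 and 5.67 and 5.62 at S5. Blade fell (−3.75 ± 0.57; limma adjusted p = 3.1e-04) and LJ was not called (−0.62 ± 0.57). The interaction of 3.13 ± 0.81 was not called (limma adjusted p = 0.21). It was called in 3 of 20 alternatives, at 4.22 without blade S4 replicate 2 (adjusted p = 0.010), at 4.45 without both S4 libraries numbered 2 (0.015) and at 6.02 with a pseudocount of 0.1 (0.017), within a range of adjusted p from 0.010 to 0.78. The lowest of the 20 values was 2.04, without blade S4 replicate 1 (adjusted p = 0.35).

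LG1 (OS04G0656500) rose in LJ, from 8.21 and 9.98 FPKM to 24.4 and 18.0 FPKM (1.13 ± 0.27; limma adjusted p = 0.0068). In blade it stayed between 1.35 and 1.77 FPKM in all 4 libraries (−0.07 ± 0.27). The LJ minus blade differences of 1.94 and 1.99 at S4 and 3.43 and 2.88 at S5 did not overlap, as in 15.1% of all tested genes in this direction. The interaction was 1.19 ± 0.38 and was not called (limma adjusted p = 0.41, range over 20 alternatives 0.11 to 1), with values from 0.99 to 1.40.

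Among the other members, TUD1, a U-box ubiquitin ligase of brassinosteroid signalling, fell in blade from 14.9 and 11.8 FPKM to 3.10 and 5.35 FPKM and was at 8.12 to 15.2 FPKM in the 4 LJ libraries. Its interaction was 1.07 ± 0.41 and was not called. The U-type cyclin gene CYCU4;1, which promotes division of the sclerenchyma on the lower side of the joint, was at 2.73 to 3.58 FPKM in the 4 LJ libraries and went from 0.683 and 1.73 FPKM to 0.364 and 0.249 FPKM in blade (interaction 0.88 ± 0.38, not called). DL, the YABBY gene of the midrib, had the lowest interaction of the list at −0.60 ± 0.43, from levels of 2.59 FPKM or less. Over the 9 tested members of 10 listed, limma called 0, the median was −0.03, and 4 had an unadjusted p under 0.05, all higher. Of all 26403 tested genes, 670 had such a p and were higher. The list was chosen with earlier results of these data known, so this count is no test of the list. Without DL and BU1, which missed the filter in these libraries, the median was 0.88.

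**Figure D4:**
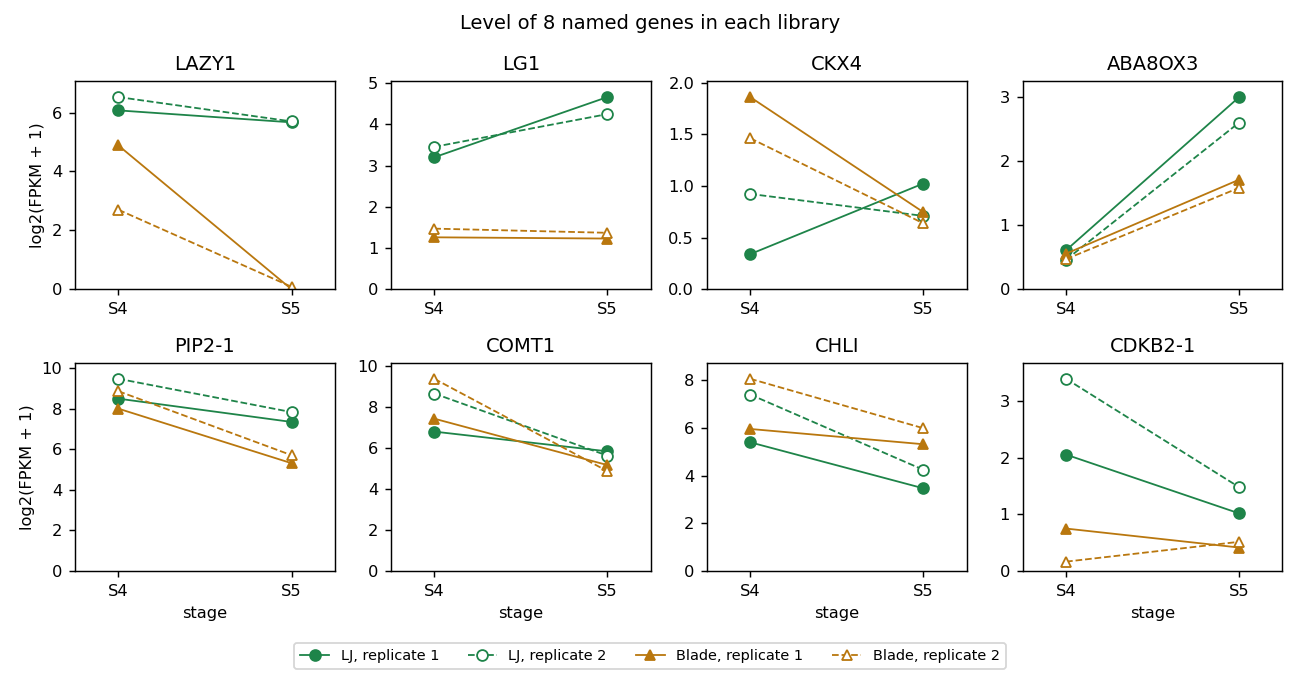
Level on the log2(FPKM + 1) scale (vertical axis) of 8 named genes at S4 and S5 in each LJ library (green circles) and each blade library (brown triangles), with lines joining libraries of the same number. LAZY1 falls to the floor in blade and not in LJ, LG1 is higher in LJ at S5 than at S4, and in PIP2-1, COMT1 and CHLI the libraries numbered 2 lie above those numbered 1 at S4 in both tissues.

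Of the class I KNOX homeobox genes, which mark meristems and boundaries, OSH71 alone had a group mean over 1 FPKM. It rose in LJ from 0.251 and 0.868 FPKM to 5.23 and 3.21 FPKM (1.74 ± 0.32; limma adjusted p = 0.0015) and went from 0 and 0.0232 FPKM to 0.528 and 0.312 FPKM in blade (0.48 ± 0.32, not called). The interaction was 1.26 ± 0.46 and was not called (limma adjusted p = 0.61). OSH15 stood at 0.0711 and 0.0991 FPKM in LJ at S4 and 0.561 and 0.333 FPKM in LJ at S5, and at 0.0673 FPKM or less in blade. OSH1 was listed at 0 in all 8 libraries, and OSH6 and OSH43 missed the filter. Limma called 0 of the 3 tested, and OSH71, with an unadjusted p under 0.05, was the only one of them with levels that allowed a comparison.

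No brassinosteroid gene was called in the interaction, and the values ran from −0.64 to 1.33 with 5 of 8 above 0. DWARF4, a C-22 hydroxylase of brassinosteroid synthesis, had the highest interaction of the list, 1.33 ± 0.75. It was at 4.42 and 11.4 FPKM and then 6.36 and 4.98 FPKM in LJ, and it fell in blade from 7.43 and 15.3 FPKM to 3.86 and 1.96 FPKM (−1.63 ± 0.53; limma adjusted p = 0.030). The receptor gene BRI1 fell in blade from 38.7 and 16.7 FPKM to 7.43 and 8.86 FPKM, while its LJ values of 79.4 and 41.8 FPKM and then 29.3 and 28.4 FPKM were not called, and its interaction was 0.57 ± 0.54. The co-receptor gene BAK1 was lowest, at −0.64 ± 0.40. Of 8 tested members of 10, limma called 0 in the interaction, with 0 at an unadjusted p under 0.05 and a median of 0.19. In LJ 2 fell (9.01% of all tested genes), and in blade 1 rose (23.8%) and 3 fell (8.87%).

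No auxin gene was called in the interaction either. Among genes of synthesis, transport and conjugation, the efflux carrier gene PIN1b had the highest interaction, 0.75 ± 0.45, and fell in both tissues, from 72.8 and 81.9 FPKM to 30.4 and 30.0 FPKM in LJ and from 32.8 and 23.7 FPKM to 6.51 and 5.26 FPKM in blade. GH3-2, which joins auxin to amino acids, had the lowest, −0.84 ± 0.33. It fell in LJ from 4.71 and 4.96 FPKM to 2.03 and 2.07 FPKM and was at 0.450 FPKM or less in blade. Limma called 0 of 8 tested members in the interaction, with 1 at an unadjusted p under 0.05 and a median of 0.10.

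Among 15 tested auxin response genes, 14 of them Aux/IAA repressors, 3 fell and 1 rose in LJ, and 6 fell and 2 rose in blade. Of all tested genes 9.01% fell and 19.5% rose in LJ, and 8.87% fell and 23.8% rose in blade. IAA24 had the highest interaction, 1.19 ± 0.49 (limma adjusted p = 0.77). It fell in blade from 64.6 and 38.4 FPKM to 14.4 and 11.2 FPKM, and its LJ values of 161 and 100 FPKM and then 79.7 and 76.3 FPKM were not called. IAA3 had a like pattern, with blade falling from 73.6 and 41.9 FPKM to 17.8 and 18.0 FPKM against 120 and 108 FPKM and then 72.9 and 90.5 FPKM in LJ (interaction 1.10 ± 0.44, not called). IAA10 was lowest at −1.03 ± 0.44, with a rise in blade from 57.3 and 44.8 FPKM to 179 and 161 FPKM and 117 and 82.0 FPKM and then 144 and 175 FPKM in LJ. The median of the list was 0.08, limma called 0, and 3 had an unadjusted p under 0.05.

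Cytokinin genes were those whose median interaction was highest among the 25 lists, at 0.77, with 9 of 10 values above 0, against 10741 of 26403 for all tested genes. Without CKX2, which missed the filter in these libraries, 8 of 9 lay above 0 and the median was 1.02. Limma called 0, and 2 had an unadjusted p under 0.05. In blade 8 of the 10 fell (8.87% of all tested genes), and in LJ 3 fell (9.01%), all of which also fell in blade (5.95%). CKX5, a cytokinin oxidase that breaks the hormone down, had the highest value, 1.43 ± 0.57. It fell in both tissues, from 43.7 and 38.4 FPKM to 11.4 and 8.83 FPKM in LJ and from 37.4 and 20.3 FPKM to 1.42 and 2.24 FPKM in blade. The type-A response regulator genes RR9 and RR10, known as near-identical copies that can share reads, had interactions of 1.31 ± 0.76 and 1.27 ± 0.65, and both fell in blade. Their blade libraries at S4 differed, with RR9 at 58.9 and 13.4 FPKM and RR10 at 68.4 and 21.1 FPKM. Over the 20 alternatives the interaction ran from 0.28 to 2.34 for RR9 and from 0.44 to 2.09 for RR10. LOG, an enzyme that releases active cytokinin, was lowest at −0.15 ± 0.82.

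CKX4, singled out after its values were seen, had the lowest unadjusted p of the interaction among the 168 (8.3e-04). It was at 0.266 and 0.896 FPKM in LJ at S4 and 1.03 and 0.636 FPKM in LJ at S5, and it fell in blade from 2.63 and 1.76 FPKM to 0.678 and 0.557 FPKM. The interaction of 1.20 ± 0.28 was not called (limma adjusted p = 0.13), and it was called at 1.40 with upper quartile scaling (adjusted p = 0.045) and with quantile normalization (0.027), at 1.50 without LJ S4 replicate 2 (0.034) and at 1.70 without both S4 libraries numbered 2 (0.013). Over its 19 alternatives the value ran from 0.91 to 2.25 and the adjusted p from 0.013 to 0.77.

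For gibberellin, 8 members were tested, limma called 0, with 0 at an unadjusted p under 0.05 and a median of −0.09. KAO, a late enzyme of the pathway before the hormone itself, was at 28.1 and 42.6 FPKM and then 58.9 and 64.3 FPKM in LJ and 40.5 and 30.1 FPKM and then 22.9 and 32.2 FPKM in blade (interaction 1.16 ± 0.65). KS1, an earlier enzyme, was lowest at −0.52 ± 0.37. The 3 tested strigolactone genes lay below 0, at −0.21 ± 0.67 for the receptor gene D14, −0.44 ± 0.41 for D17 and −0.49 ± 0.36 for the F-box gene D3, and only D3 in blade was called between stages, as a rise from 13.9 and 9.82 FPKM to 24.9 and 24.6 FPKM. In the interaction limma called 0 of these 3, with 0 at an unadjusted p under 0.05.

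Jasmonate genes included the largest LJ rise among the named genes. AOS2, an allene oxide synthase of jasmonate synthesis, rose from 0.394 and 1.13 FPKM to 47.7 and 17.8 FPKM in LJ (4.13 ± 0.45) and from 0.0693 and 0.349 FPKM to 18.5 and 5.78 FPKM in blade (3.26 ± 0.45), with an interaction of 0.87 ± 0.64. JAR1, which makes the active jasmonate conjugate, had the highest interaction, 0.88 ± 0.44, with 21.9 to 24.9 FPKM in all 4 LJ libraries and a fall in blade from 34.6 and 43.0 FPKM to 17.3 and 19.8 FPKM. OPR7, an enzyme of synthesis, was lowest at −0.16 ± 0.59 and rose in both tissues. Of 12 tested members limma called 0, with 0 at an unadjusted p under 0.05 and a median of 0.22. The JAZ repressor gene JAZ8 was at 5.17 and 17.6 FPKM in LJ and 3.81 and 26.9 FPKM in blade at S4, and at 24.3 and 6.96 FPKM and 28.7 and 6.26 FPKM at S5, so its library numbers had the same order in both tissues and the opposite order at the other stage. JAZ6 and the synthesis genes AOS1, AOS2, AOC and OPR7 had the same orders. JAZ6 was at 128 and 134 FPKM in LJ and 111 and 175 FPKM in blade at S4. At S5 JAZ6 was at 303 and 270 FPKM in LJ and 362 and 221 FPKM in blade. Not all JAZ genes shared this: JAZ10 was at 463 and 290 FPKM in LJ and 217 and 236 FPKM in blade at S4.

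ABA8OX3 (OS09G0457100), which inactivates abscisic acid, rose in both tissues, and its larger rise in LJ was called only when libraries were paired. It went from 0.526 and 0.377 FPKM to 7.03 and 5.09 FPKM in LJ and from 0.471 and 0.386 FPKM to 2.28 and 2.00 FPKM in blade. The tissues were alike at S4 and apart at S5, with differences of 0.05 and −0.01 and then 1.29 and 1.02. The interaction was 1.13 ± 0.32 (limma adjusted p = 0.28) and was called with pairing (SE 0.21, adjusted p = 0.033), the only one of 20 alternatives that called it, within a range of 0.033 to 1 and with values from 0.94 to 1.39. ABA8OX1, of the same family, was lowest of the 4 tested at −0.77 ± 0.66, and the list's median was 0.06, with 1 unadjusted p under 0.05, that of ABA8OX3.

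Secondary wall genes fell in both tissues with few exceptions. The secondary wall cellulose synthase genes CESA4, CESA7 and CESA9, markers of xylem and fibres, fell in both: CESA7 went from 27.1 and 48.0 FPKM to 0.0973 and 0.465 FPKM in LJ and from 8.08 and 18.0 FPKM to 0.0553 and 0.125 FPKM in blade. Its interaction was the lowest of the list, −1.28 ± 0.66, and CESA4 had the highest, −0.05 ± 0.72. BC1, which belongs to the COBRA-like genes and acts in secondary wall formation, fell in LJ (−2.04 ± 0.49) and was not called in blade, with an interaction of −1.10 ± 0.69. In the interaction limma called 0 of 4, with 0 at an unadjusted p under 0.05 and a median of −0.89. The summed level of the 3 xylem markers was 50.0 and 118 FPKM in LJ and 24.6 and 57.9 FPKM in blade at S4, and 1.84 FPKM or less in each S5 library. In bulk tissue, fewer cells of a type and less RNA per cell cannot be told apart.

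The primary wall cellulose synthase genes ranged from −0.86 ± 0.59 for CESA2 to 0.59 ± 0.56 for CESA8. None of the 6 was called in the interaction or between stages in LJ, with 0 at an unadjusted p under 0.05 in the interaction, while in blade CESA2 and CESA5 rose and CESA3 fell. Of 4 lignin genes, COMT1, a caffeic acid O-methyltransferase, had the highest interaction, 1.39 ± 1.05. It fell in blade from 171 and 659 FPKM to 34.8 and 28.1 FPKM and was at 110 and 400 FPKM and then 55.9 and 48.2 FPKM in LJ. LJ lay below the blade library of the same number at S4 (−0.63 and −0.72) and above it at S5 (0.67 and 0.76), and the paired fit had an SE of 0.30 and did not call it (adjusted p = 0.057, range over 20 alternatives 0.057 to 1, with values from 0.41 to 2.36). CAD2, a cinnamyl alcohol dehydrogenase, was lowest at −0.21 ± 0.53 and fell in both tissues. No lignin gene had an unadjusted p under 0.05 in the interaction, and the median was 0.63.

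Among expansins, proteins that loosen walls, EXPB2 had the highest interaction, 2.09 ± 1.11, and its LJ libraries differed widely. It was at 4.82 and 68.3 FPKM in LJ at S4, 5.29 and 19.9 FPKM in LJ at S5, 5.71 and 8.09 FPKM in blade at S4, and 0 and 0.0909 FPKM in blade at S5. The interaction was not called (limma adjusted p = 1.0) and was called at 3.88 without LJ S4 replicate 2 (adjusted p = 0.017) and at 3.66 without both S4 libraries numbered 2 (0.042). It was 0.31 without LJ S4 replicate 1 and 1.23 without LJ S5 replicate 2 (adjusted p = 1 in both), so the size of the difference rests on single LJ libraries. EXPB2 neighbours other beta-expansin genes in ID order, and such copies can share reads. EXPB4 was lowest at −0.38 ± 0.53 and stood at 264 to 306 FPKM in the 4 LJ libraries and 22.0 to 44.2 FPKM in the 4 blade libraries. Of 8 tested members, 1 of them the glucan synthase gene CSLF6, limma called 0, with 0 at an unadjusted p under 0.05 and a median of 0.37.

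PIP2-1 (OS07G0448800), a plasma membrane water channel, fell in both tissues, and its larger fall in blade was called only when libraries were paired. It went from 359 and 709 FPKM to 162 and 227 FPKM in LJ and from 255 and 464 FPKM to 38.7 and 51.2 FPKM in blade. The second library was the higher one in each group, and LJ minus blade was 0.49 and 0.61 at S4 and 2.03 and 2.12 at S5. The interaction was 1.53 ± 0.65 (limma adjusted p = 0.82) and was called with pairing (SE 0.27, adjusted p = 0.027), the only one of 20 alternatives that called it, within a range of 0.027 to 1 and with values from 1.04 to 2.02. The same family held PIP2-6 at 1.43 ± 0.88 and, as the lowest, PIP1-3 at −0.95 ± 0.95. Of 10 tested aquaporins limma called 0, with 1 at an unadjusted p under 0.05 and a median of −0.12. The silicon transporter genes LSI6 and LSI1 were at 0.46 ± 0.83 and 0.23 ± 0.35, neither with an unadjusted p under 0.05, and LSI2 was listed at 0 in all 8 libraries.

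Genes of DNA replication and mitosis were weak at both stages, and limma called 0 of 11 in the interaction, with 3 at an unadjusted p under 0.05. The 6 subunit genes of the MCM helicase, which opens DNA for replication, did not exceed 1.33 FPKM in any library. They and the B-type cyclin gene CYCB2-2 passed the filter through other stages, and their blade means at S4 were 0.294 FPKM or less, so blade had almost no room to fall and the direction of their interaction is not read here. The other 4 were PCNA, the sliding clamp of DNA polymerase, at −0.51 ± 0.81, CYCB2-1 at −1.09 ± 0.45, CDKB1-1 and CDKB2-1. CYCB2-1 was at 0.223 FPKM or less in the 4 blade libraries, so its blade level had almost no room to fall either. CDKB2-1, a mitotic kinase, had the lowest interaction of all named genes, −1.48 ± 0.55 (limma adjusted p = 0.63, range over 20 alternatives 0.10 to 1, with values from −2.15 to −0.52). It fell in LJ from 3.15 and 9.48 FPKM to 1.02 and 1.78 FPKM and was at 0.680 and 0.121 FPKM and then 0.332 and 0.429 FPKM in blade, which also left blade little room to fall. CDKB1-1, a related kinase, rose in both tissues, from 1.82 and 4.53 FPKM to 6.10 and 7.89 FPKM in LJ and from 0.910 and 0.927 FPKM to 5.82 and 7.98 FPKM in blade (interaction −1.02 ± 0.42). MCM7 had the highest value of the list, −0.20 ± 0.39, from levels of 0.303 FPKM or less.

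Genes of the photosynthetic machinery had wide errors in the fit without pairing, and the S4 libraries of a tissue differed in them. CAB2R, a chlorophyll a/b binding protein of the light harvesting antenna, was at 1160 and 10037 FPKM in LJ and 1530 and 14301 FPKM in blade at S4, and at 593 and 1150 FPKM in LJ and 1593 and 2461 FPKM in blade at S5. Its interaction was −0.81 ± 1.81. Within the light harvesting list the values were −0.82 ± 1.50 for LHCB2 and −0.46 ± 1.35 for CAB1R. In the photosystem list the 3 tested genes ran from −0.49 ± 0.84 for PSBW to −0.28 ± 0.66 for PSBQ, and in the Calvin cycle list the 5 tested ran from −0.39 ± 1.02 for the Rubisco subunit gene RBCS2 to 0.28 ± 1.40 for RCA, the activase. Of these 11 limma called 0, with 0 at an unadjusted p under 0.05. With same-numbered libraries paired, the SE was 0.58 for CAB2R, 0.48 for LHCB2, 0.34 for CAB1R, 0.51 for RBCS2 and 0.26 for RCA. That fit also called 0 of the 11.

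Genes of chlorophyll synthesis and breakdown fell in both tissues more often than they rose. Of 12 tested, 7 fell and 1 rose in LJ, 5 fell and 2 rose in blade, and 5 fell in both. The called rises were those of the breakdown genes NYC1, in LJ (1.49 ± 0.44) and blade (1.84 ± 0.44), and SGR, in blade (1.43 ± 0.51). Of all tested genes 9.01% fell and 19.5% rose in LJ, 8.87% fell and 23.8% rose in blade, and 5.95% fell in both. The splits over all genes moved with the scaling, as given above. CHLI (OS03G0563300), a subunit of magnesium chelatase, fell in LJ from 41.0 and 167 FPKM to 10.1 and 17.9 FPKM and was at 60.9 and 265 FPKM and then 38.7 and 62.3 FPKM in blade. LJ minus blade was −0.56 and −0.66 at S4 and −1.85 and −1.74 at S5, without overlap, as in 26.9% of all tested genes in this direction. The interaction was −1.19 ± 0.90 (limma adjusted p = 1.0) and was called with pairing (SE 0.22, adjusted p = 0.033), the only one of 20 alternatives that called it, within a range of 0.033 to 1. Single S4 libraries moved the value: it was −0.13 when blade S4 replicate 1 was left out, −0.18 for LJ S4 replicate 2, −2.24 for blade S4 replicate 2 and −2.19 for LJ S4 replicate 1. PORA, a light-dependent protochlorophyllide reductase, had the highest interaction, 1.78 ± 1.13, with falls from 106 and 333 FPKM to 4.85 and 14 FPKM in LJ and from 179 and 320 FPKM to 2.06 and 2.91 FPKM in blade. The median of the list was −0.38, and limma called 0 without pairing, with 0 at an unadjusted p under 0.05.

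In photorespiration, GLO1, a glycolate oxidase, rose in both tissues (interaction −0.64 ± 0.45) and GDCH, the H protein of glycine decarboxylase, fell in both (−0.40 ± 0.79), with 0 of these 2 called by limma in the interaction and 0 at an unadjusted p under 0.05. In nitrogen assimilation the values ran from −0.71 ± 1.99 for NADH-GOGAT2 to 0.54 ± 0.44 for the cytosolic glutamine synthetase gene GS1-1, with 0 of 5 called by limma and 0 at an unadjusted p under 0.05. In sugar transport and cleavage the sucrose transporter gene SUT1 was highest at 0.60 ± 0.48 and CIN2, a cell wall invertase, lowest at −1.07 ± 0.36 (limma adjusted p = 0.52). CIN2 fell in LJ from 2.66 and 1.77 FPKM to 0.176 and 0.0203 FPKM and was at 0.652 and 0.207 FPKM and then 0.0470 and 0 FPKM in blade. In that list limma called 0 of 7 tested, with 1 at an unadjusted p under 0.05 and a median of 0.01.

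Of 6 tested circadian clock genes, LHY, GI, PRR1 and PRR95 differed more between library numbers than between tissues at S4. LHY, a MYB gene whose transcript is known to peak around dawn, was at 9.81 and 498 FPKM in LJ and 7.31 and 541 FPKM in blade at S4, and at 95.9 and 363 FPKM in LJ and 90.8 and 396 FPKM in blade at S5. The evening genes GI and PRR1 had the opposite order: GI was at 112 and 21.9 FPKM in LJ and 133 and 18.0 FPKM in blade at S4, and at 132 and 59.1 FPKM and 109 and 39.1 FPKM at S5. PRR1 was at 49.7 and 4.72 FPKM in LJ and 56.1 and 3.69 FPKM in blade at S4. PRR37 and PRR73 did not follow this pattern: at S4 PRR37 was at 2.86 and 5.11 FPKM in LJ and 3.93 and 3.00 FPKM in blade, and PRR73 at 22.9 and 29.2 FPKM in LJ and 11.9 and 26.5 FPKM in blade. The interactions ran from −0.38 ± 1.21 for PRR95 to 0.42 ± 1.50 for GI, with an SE of 3.14 for LHY, and limma called 0 of 6, with 0 at an unadjusted p under 0.05. Pairing same-numbered libraries gave an SE of 0.30 for LHY, 0.28 for GI, 0.45 for PRR1 and 0.48 for PRR95, and called 0 of the 6. LHY in LJ minus blade was 0.38 and −0.12 at S4 and 0.08 and −0.13 at S5. Most of its difference between library numbers was thus common to both tissues and cancelled in LJ minus blade. No time of day is stated for the collections. How much of the difference between library numbers entered the interaction over all genes was not tested. Without the S4 libraries numbered 2 in both tissues, an alternative chosen after seeing the data, 141 genes were called, 113 higher and 28 lower, and 57 of them were among the 95.

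**Figure D5:**
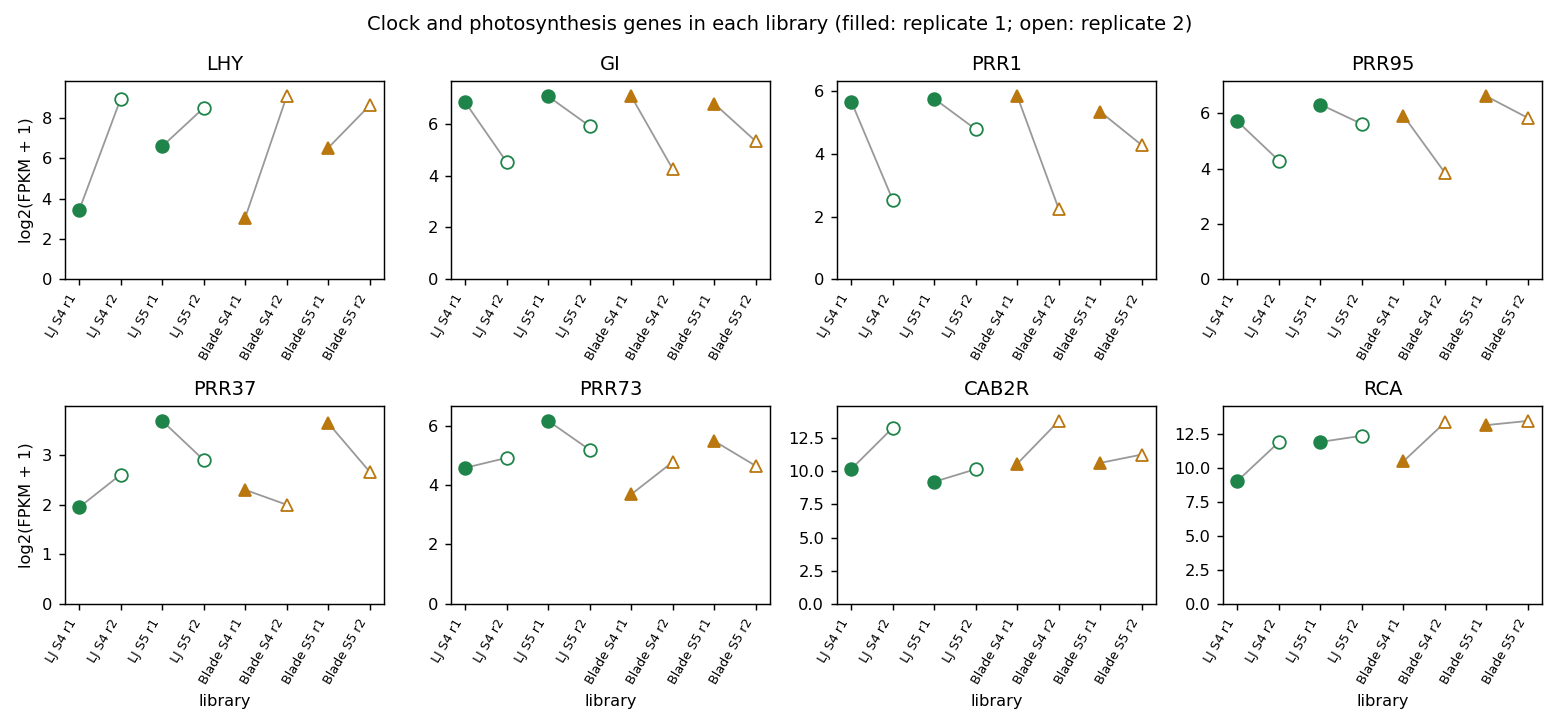
Level on the log2(FPKM + 1) scale (vertical axis) of the 6 tested clock genes and 2 photosynthesis genes, CAB2R and RCA, in each of the 8 libraries (horizontal axis), LJ as circles and blade as triangles, replicate 1 filled and replicate 2 open, with grey lines joining the 2 libraries of a group. For LHY, GI, PRR1, PRR95, CAB2R and RCA the lines slope the same way in all 4 groups and are steeper at S4 than at S5, while for PRR37 the S4 lines slope in opposite ways in LJ and blade and for PRR73 the slope turns between S4 and S5.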

How the data were processed

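RNA of 20 libraries was made with TRIzol and an NEBNext Ultra kit, per the labels' protocols (strandedness not stated). The values deposited are FPKM, and, per the submitters' processing notes, Cufflinks 2.2.1, TopHat2 2.1.1, Trimmomatic 0.36 and CASAVA 1.8 were used with the build IRGSP-1.0. Each file listed 82632 features, and 37829 rice gene IDs were kept. Of 460387 low values 3.64% lay within 0.02 reads of a whole read count, against 4% if evenly spread, so no whole reads were recovered and no interval or floor that needs the depth can be given.

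The 26403 genes that reached 1 FPKM in 2 or more libraries were tested on log2(FPKM + 1), a pseudocount of 1, with limma 3.58.1 in R 4.3.3 (with the package data.table, version 1.17.8), in 1 fit of 10 groups with a trend of the variance on the mean, 10 residual and 4.09 prior degrees of freedom, and Benjamini-Hochberg adjustment over every gene tested. The scale understates changes of weak genes. Levels are per library, and errors are SE of the fit. The same script was tested on simulated data. The shift from replicate 1 to replicate 2 correlated across genes between the tissues of a stage at 0.213 to 0.774, above 0.1 at each of the 5 stages, so the replicate numbers were read as pairing the tissues. The main fit had no block for this pairing, so its SE, adjusted p-values and calls leave the pairing out. The paired fit, with a block for each stage and number, had 5 residual and 4.99 prior degrees of freedom.

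The comparison, lists and members were chosen with earlier results of these data known. Pairs of ID and symbol came from background knowledge and were checked against the RefSeq annotation (assembly ASM3414082v1) for chromosome and a place in gene order within 2% (largest difference 1.34%): 180 of 253 passed, 72 had no such symbol there, and 1 was contradicted. Of the lists, the text gives the highest and lowest tested member, further members by count or value, and of all genes the 2 highest and 2 lowest called IDs whose paired differences do not overlap. Members given beyond these (LG1, TUD1, CYCU4;1, OSH15, OSH43, BRI1, IAA3, RR9, RR10, CKX4, AOS1, AOS2, AOC, JAZ6, JAZ8, JAZ10, PIP2-6, PCNA, CYCB2-1, CDKB1-1, CAB2R, NYC1, SGR, LHY, PRR1, PRR37 and PRR73) were chosen after their values were seen.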

Additional observations from a re-analysis of the deposited data

Results flagged for a closer look

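The change from S4 to S5 differed between LJ and blade by the interaction test in 95 genes. The 4 IDs given above are the extremes among them, with interactions of 6.65 for OS05G0201700, 4.68 for OS07G0568700, −11.40 for OS03G0659266 and −11.30 for OS03G0667201 on the log2(FPKM + 1) scale. Groups of 2 libraries are too small to look for single outlying libraries.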

How the results depend on the processing

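The count of 95 called genes (55 higher, 40 lower) moved with the processing. It was 28 (16 and 12) with a pseudocount of 0.1, 223 (142 and 81) with no filter, 21 (9 and 12) when genes had to reach 5 FPKM, 4 (1 and 3) with only the 4 groups compared, 36 (24 and 12) with library weights, 356 (182 and 174) with the replicate block that pairs LJ and blade, 4 (1 and 3) with that block in only the 8 libraries, and 141 (113 and 28) without the S4 libraries numbered 2 in both tissues, which was added after seeing the data. It was 91 with the filter taken over the 8 libraries, 96 with upper quartile scaling, 88 with quantile normalization and 77 with an additive replicate term. With 1 library left out it ran from 49 to 115, with 30 to 84 higher and 14 to 58 lower, on the assumption that the lone library left in a group varies as the rest do. The higher calls were 84 without blade S4 replicate 2, 35 without LJ S5 replicate 1, 34 without blade S4 replicate 1 and 30 without blade S5 replicate 1. The lower calls were 14 without LJ S5 replicate 2, 22 without blade S4 replicate 1 and 19 without blade S5 replicate 1. All calls shared with the 95 kept their direction. The rises and falls were 2932 and 1702 in LJ and 4067 and 1587 in blade with only the 4 groups compared, and 8375 and 4122, and 9460 and 3859, with the replicate block.

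Of 68 genes followed through 20 alternatives, none turned direction while called. The 4 IDs lost their calls in 42 cases, and the 64 genes not called gained one in 12, in LAZY1, EXPB2, CKX4, PIP2-1, CHLI and ABA8OX3. The replicate block changed no other call of these genes. In 77 cases an uncalled value crossed 0. The cause was not tested. The 2 libraries per group and the unknown depth limit all of these values.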
